A study of Homo sapiens with 9 samples.

Results

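Bafilomycin A1 (BafA1), which stops the acidification of lysosomes, was given to neural progenitor cells (NPC), which were compared at day 11 with untreated NPC of the same midbrain dopaminergic protocol. The comparison was taken from the libraries that the labels give as BafA1-treated NPC and as untreated NPC, 3 of each, which are 6 of the 9 libraries in all. All came from H9, an established line of human embryonic stem cells (hESC), and the remaining 3 libraries are of the undifferentiated line. Both NPC groups received LDN193189, a blocker of BMP receptors, at 200 nM, and SB431542, a blocker of TGF-beta receptors, at 10 µM. They were also given purmorphamine at 2 µM, an activator of Hedgehog signalling, and CHIR99021 at 3 µM, an inhibitor of GSK3 that activates WNT signalling. The BafA1 group was given the drug at 10 nM in exposures of 6 h. Several exposure windows are listed between days 4 and 10, and the labels do not tie the sequenced cells to any of them. How long the cells had been free of the drug when RNA was taken is likewise not stated. The libraries are numbered as replicates of H9, a single line, and nothing says whether they came from separate cultures, so p-values measure only the spread between these libraries.

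The vacuolar proton pump (V-ATPase) moves protons into lysosomes, endosomes and Golgi vesicles, through a membrane sector called V0 that is driven by an ATP-splitting sector called V1. BafA1 binds the V0 sector and stops the pump, so that lysosomal enzymes lose their acid optimum, iron and cholesterol are no longer released from endocytosed cargo, and autophagosomes are not degraded. Acid lysosomes also serve as a platform for nutrient sensing by mTORC1, and they hold zinc, calcium and amino acids in store. In neural progenitors the same compartment takes up and degrades receptors of the WNT pathway, in which the Dishevelled proteins (DVL) carry the signal from the receptor to beta-catenin.

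Each library held 43124679 to 69703791 counts. On the first principal component of the 6 libraries (58.1% of the variance, 19165 genes), control libraries lay at -67.1 to -37.1 and BafA1 libraries at 40.8 to 61.3. Markers were held against the label. POU5F1, a pluripotency factor, had no count in control and at most 0.0182 CPM in BafA1 libraries, against a mean of 2285 in hESC. In control the means were 272 CPM of SOX2, 614 of NES, 101 of FOXA2 and 77.3 of LMX1A. CPM here means counts scaled to library size and TMM (trimmed mean) factors. Changes are therefore relative, and do not measure RNA per cell. Scaling by library size alone moved the median log2 fold change of all genes by -0.12, and a change smaller than that has no settled direction. Across 13083 genes, the level of a gene relative to its mean correlated with the GC content of its transcript differently in the groups (Spearman's rho -0.392 to -0.102 in control and -0.0154 to 0.0973 in BafA1 libraries, with genes of a library sharing its preparation). When trends with GC content and length were removed, 4420 genes were higher and 4730 lower.

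A large share of the transcriptome differed, and a log2 fold change below is given ± its SE with the adjusted p of edgeR's quasi-likelihood test. Of 20685 genes tested, 4309 were higher with BafA1 (20.8%) and 4277 lower (20.7%), or 41.5% in either direction, at an adjusted p under 0.05. Under scaling by library size alone the split was 3104 higher and 5681 lower. Of the calls under TMM scaling, 1257 rises and 1580 falls were under 0.5 on the log2 scale, while 1318 genes rose at least 2-fold (6.37%) and 940 fell at least 2-fold (4.54%). The 3 libraries of each group did not overlap in 4986 genes that were higher (24.1%) and 5184 that were lower (25.1%). Counts of list members given below are to be read against these shares, and the median log2 fold change of all genes tested was 0.

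Among abundant genes with no overlap between the groups, the largest rises included genes for secreted factors, metal binding and transcription. PDGFB, a growth factor chain, stood at 3.1, 2.47 and 2.55 CPM in the control libraries and 23.3, 32.4 and 34.9 with BafA1 (log2 fold change 3.48 ± 0.22, adjusted p = 4.68e-06). IGFBP3, which binds insulin-like growth factors outside the cell, went from 19.4, 18.7 and 15.9 to 118, 138 and 229 CPM (log2 fold change 3.17 ± 0.21, adjusted p = 4.98e-06). The long noncoding RNA H19 was at 10.7, 9.97 and 13.7 CPM in control and 92.5, 71.5 and 85.2 with BafA1 (log2 fold change 2.86 ± 0.16, adjusted p = 2.97e-06). In all of these the lowest BafA1 library lay far above the highest control library. The other 9 of the 12 largest rises were NDRG1, MT1X, BHLHE40, JUN, ANKRD1, FAM160A1, EDN1 (the vasoconstrictor peptide endothelin), MT2A and NRN1, with log2 fold changes from 2.42 (NRN1) to 3.01 (NDRG1).

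The largest falls included genes for cell surface proteins and a chaperone. LRRC4, a synaptic adhesion protein, fell from 26, 22.8 and 18.9 to 5.59, 5.9 and 4.15 CPM (log2 fold change -2.12 ± 0.19, adjusted p = 1.66e-05). PLXNA2, a semaphorin receptor, was at 49, 42.7 and 33.7 CPM in control and 13.7, 11.2 and 9.3 in BafA1 libraries (log2 fold change -1.88 ± 0.16, adjusted p = 1.55e-05). DNAJA1, a co-chaperone of HSP70, dropped from 402, 356 and 319 to 101, 125 and 100.2 CPM (log2 fold change -1.72 ± 0.12, adjusted p = 6.9e-06). PIK3R3, a regulatory subunit of phosphoinositide 3-kinase, was lower by a similar amount and with little spread, at 152, 162 and 155 against 50.3, 47.3 and 36.9 CPM (log2 fold change -1.80 ± 0.11, adjusted p = 4.52e-06). The other 8 of the 12 largest falls were FAM111B, APCDD1, HMGCS1, KIF26B, LCMT2, LUM, NCOA5 and DUS4L-BCAP29, a readthrough gene whose reads cannot be separated from those of its 2 partners, with log2 fold changes from -2.03 (FAM111B) to -1.60 (DUS4L-BCAP29).

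**Figure D1:**
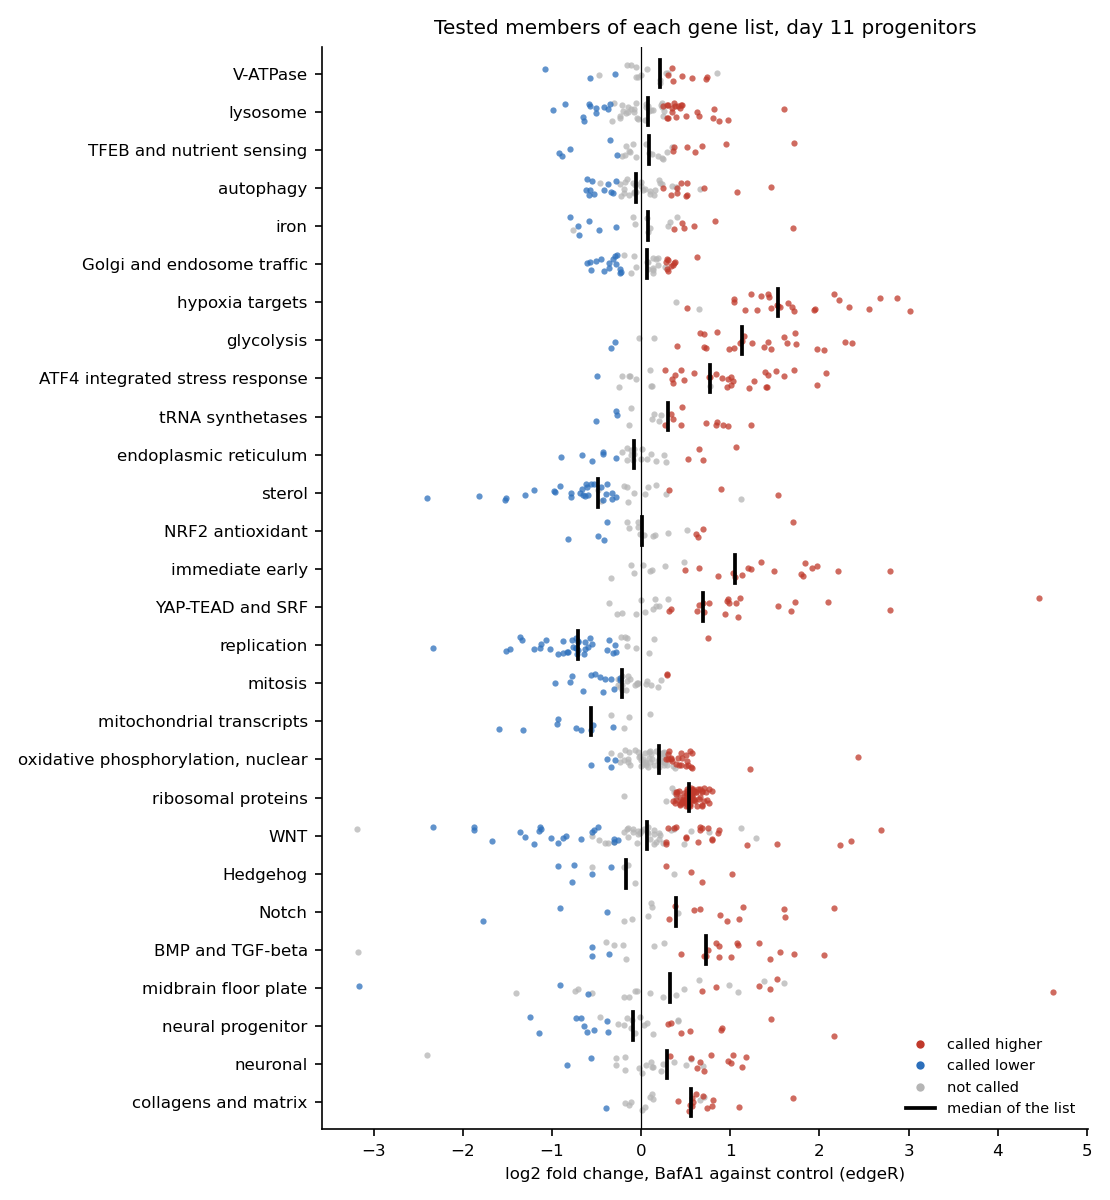
Each row is a gene list and each point a tested member, placed on the x axis by its log2 fold change (BafA1 against control), with the vertical bar at the median of the list. Hypoxia targets, glycolysis and ribosomal proteins lie almost wholly to the right of 0, replication, sterol and mitochondrial transcripts mostly to the left, and V-ATPase, lysosome, autophagy and WNT genes on both sides. The metallothionein list is not drawn because 1 of its members has no count in control.

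The pump itself changed in both directions. Of 25 genes for V-ATPase subunits and accessory proteins, 23 could be tested, 7 rose and 3 fell, with a median log2 fold change of 0.21. In the V1 sector 4 of 12 tested genes rose and 0 fell, and in the V0 sector 3 of 11 rose and 3 fell. Without BafA1 replicate 3 only 2 genes of the V1 sector were called higher, without BafA1 replicate 1 there were 7, and under scaling by library size alone 4 of the 23 pump genes were. In limma fits of log2(FPKM + 1) and log2(FPKM + 0.1), called the FPKM fits below and given in that order, 4 and 2 of the 23 were. Scaling by library size alone and both FPKM fits called 1 gene of the V1 sector lower.

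ATP6V0A2, the isoform of the large V0 subunit found on Golgi and early endosomes, showed the clearest difference of the set. It was at 28.4, 28.3 and 25.2 CPM in the control libraries and at 13.5, 13.3 and 12.1 in BafA1 libraries (log2 fold change -1.08 ± 0.09, adjusted p = 1.48e-05), and every treated library lay far below the lowest control library. TCIRG1, which encodes the isoform of the same subunit known from osteoclasts, went the other way, from 15.1, 15.8 and 12.1 to 23.4, 21.9 and 26.3 CPM (log2 fold change 0.73 ± 0.13, adjusted p = 0.000932). ATP6V0A1, the isoform prominent in neurons and lysosomes, was at 76.8, 68.8 and 74.2 CPM in control and 102, 84.6 and 92.3 with BafA1 (log2 fold change 0.35 ± 0.09, adjusted p = 0.0072), and its call was lost under scaling by library size alone (adjusted p = 0.0903) and in the FPKM fits (0.119 and 0.183). The isoforms of this subunit thus differed among themselves in direction. ATP6V0D1, the stalk that joins the sectors, fell (61.3 ± 12.7 and 41.4 ± 2.89 CPM, mean ± SD of 3 libraries in control and then in BafA1; log2 fold change -0.57 ± 0.13, adjusted p = 0.00493). ATP6V0C, the proteolipid that forms the BafA1 binding site, was at 121, 103 and 83.9 CPM in control and 118, 121 and 116 with BafA1, which overlap (adjusted p = 0.159). ATP6V0E1 was also called lower (log2 fold change -0.29 ± 0.11, adjusted p = 0.0467), a call that was lost without control replicate 1 (0.125), control replicate 2 (0.117) or BafA1 replicate 1 (0.134). It did not pass with RLE factors (0.0541), without a filter (0.0559), in the 6 libraries alone (0.084) or with the replicate block (0.0641) either. The accessory protein gene ATP6AP1 rose from 88 ± 8.63 to 108 ± 2.7 CPM (log2 fold change 0.30 ± 0.09, adjusted p = 0.0144) and its call was lost without control replicate 2 (adjusted p = 0.0538), under scaling by library size alone (0.114) and in the FPKM fits (0.162 and 0.261). ATP6AP2 was at 88.6 ± 3.2 and 85 ± 9.72 CPM (adjusted p = 0.632). ATP6V0B, ATP6V0E2 and ATP6V0A4 did not pass the test either, with log2 fold changes of -0.11, -0.15 and 0.28.

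In the V1 sector ATP6V1H, a subunit that helps to hold V1 on V0, showed the smallest adjusted p. ATP6V1H stood at 41.9, 37 and 39.6 CPM in control and at 56.6, 60.2 and 58.7 in BafA1 libraries, without overlap (log2 fold change 0.57 ± 0.08, adjusted p = 0.000221). ATP6V1D, part of the central rotor, was at 90.3, 96.1 and 107 CPM in control and 114, 139 and 151 with BafA1 (log2 fold change 0.46 ± 0.11, adjusted p = 0.00462). ATP6V1A, the catalytic subunit, went from 77.5 ± 3.55 to 99 ± 12.4 CPM (log2 fold change 0.35 ± 0.10, adjusted p = 0.0132), which no longer passed without BafA1 replicate 3 (adjusted p = 0.0586), under scaling by library size alone (0.0706) or in the FPKM fits (0.194 and 0.248). ATP6V1G2, the neuronal form of a stator subunit, went from 9.37 ± 3.08 to 15.5 ± 2.41 CPM (log2 fold change 0.73 ± 0.21, adjusted p = 0.0173), likewise lost without BafA1 replicate 3 (0.0688) and in the latter FPKM fit (0.0531). The other 8 tested subunits of V1 did not pass. ATP6V1B2, the partner of the catalytic subunit, had 127 ± 1.16 and 122 ± 3.95 CPM. ATP6V1B1, ATP6V1C1, ATP6V1C2, ATP6V1E1, ATP6V1E2, ATP6V1F and ATP6V1G1 had log2 fold changes from -0.47 (ATP6V1B1) to 0.85 (ATP6V1C2).

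Lysosomal hydrolases and membrane proteins did not move as a block. Among 39 tested hydrolases and activators 17 rose and 4 fell (median log2 fold change 0.24), and among 21 membrane proteins 5 rose and 7 fell (median -0.08). Fewer hydrolases were called higher under scaling by library size alone (9), without control replicate 2 (10) and without BafA1 replicate 3 (11), and 3 membrane proteins under each of these. Scaling by library size alone also called 9 hydrolases lower, as many as higher, and the FPKM fits called 8 and 7 higher and 10 and 8 lower. In the FPKM fits 2 and 1 membrane proteins were higher.

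GAA, the acid glucosidase that degrades glycogen in lysosomes, was at 38.9, 41.8 and 41.8 CPM in control and 81.6, 77.8 and 80.9 with BafA1 (log2 fold change 0.97 ± 0.08, adjusted p = 1.16e-05). Its promoter is shown because GAA had the largest rise of the hydrolases and because the window holds the palindrome CACGTG, the core of the E-box that TFEB, TFE3 and other basic helix-loop-helix factors bind. The 250 bases before its RefSeq start follow, chr17:80101331-80101580 on the plus strand of GRCh38.p14, with both matches in capitals.
GAA: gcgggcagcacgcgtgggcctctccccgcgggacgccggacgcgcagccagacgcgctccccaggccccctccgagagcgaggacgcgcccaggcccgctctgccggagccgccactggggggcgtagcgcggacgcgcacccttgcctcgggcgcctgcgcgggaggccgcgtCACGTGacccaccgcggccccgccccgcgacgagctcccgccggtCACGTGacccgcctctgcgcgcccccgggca
CACGTG was present in 23.3% of 60 windows of lysosomal genes and in 19.2% of 26 windows of pump genes, against 6.34% of all 35097 windows of this length from the RefSeq table and 7.82% of those of genes tested. A match is a description of the letters and not a measured site.

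MANBA and MAN2B1, mannosidases that trim glycoproteins, rose from 43.1 ± 5.57 to 79 ± 6.95 and from 62.8 ± 6 to 111 ± 3.22 CPM (log2 fold change 0.87 ± 0.11 for MANBA and 0.82 ± 0.09 for MAN2B1, adjusted p = 8.49e-05 and 4.54e-05). LGMN, the asparaginyl endopeptidase that matures cathepsins, went from 48.4 ± 2.13 to 84.5 ± 1.78 CPM (log2 fold change 0.80 ± 0.08, adjusted p = 2.61e-05). PSAP, the precursor of saposins that present sphingolipids to their hydrolases, was at 628, 559 and 583 CPM in control and 905, 916 and 954 in BafA1 libraries (log2 fold change 0.65 ± 0.09, adjusted p = 0.000174). These groups of values did not overlap. The hydrolases that fell included ARSB, a sulfatase, ACP2, the lysosomal acid phosphatase, and CTSC, an aminopeptidase. Their log2 fold changes were -0.99 ± 0.12, -0.65 ± 0.11 and -0.35 ± 0.08 (adjusted p = 8.2e-05, 0.000813 and 0.00526). CTSD, the main aspartic protease, overlapped between groups at 169.9, 147 and 122 CPM in control and 171, 165 and 181 with BafA1 (adjusted p = 0.104).

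The 7 membrane proteins that fell were MCOLN1, SLC38A9, CLCN7, OSTM1, CTNS, PIP4P1 and MFSD8. The call of MFSD8 was lost without control replicate 2 (adjusted p = 0.0842), control replicate 3 (0.06) or BafA1 replicate 2 (0.0791) and with trends removed (0.0822). MCOLN1, the calcium channel TRPML1, was at 16.3, 15.3 and 11.5 CPM in control and 9.3, 9.77 and 9.7 with BafA1 (log2 fold change -0.58 ± 0.13, adjusted p = 0.00482). SLC38A9, which reports lysosomal arginine to mTORC1, went from 24.3, 26.1 and 28.6 to 16.9, 16 and 17.3 CPM (log2 fold change -0.65 ± 0.10, adjusted p = 0.000323). CLCN7, a chloride-proton exchanger, and its partner OSTM1 fell together, from 40.7 ± 6.78 to 27.4 ± 2.53 and from 25.4 ± 2.93 to 14 ± 0.773 CPM (log2 fold change -0.57 ± 0.12 for CLCN7 and -0.86 ± 0.11 for OSTM1, adjusted p = 0.0028 and 0.000112). NPC1, which exports cholesterol from lysosomes, rose from 41.4 ± 1.09 to 53.7 ± 2.3 CPM (log2 fold change 0.37 ± 0.07, adjusted p = 0.00171). LAMP3, a scarce relative of the LAMP proteins, went from 0.424, 0.591 and 1.04 to 2.02, 2.17 and 2.1 CPM (log2 fold change 1.61 ± 0.37, adjusted p = 0.00454). LAMP1, the usual marker of the organelle, was at 192, 159 and 133 CPM in control and 142, 135 and 138 with BafA1, with overlap (adjusted p = 0.158).

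Of the transcription factors that control lysosomal genes, TFE3 rose from 39.7, 32.6 and 30.7 to 48.9, 49.9 and 57.6 CPM (log2 fold change 0.60 ± 0.11, adjusted p = 0.000955), with no overlap. TFEB was scarce, at 1.5, 1.27 and 0.968 CPM in control and 1.07, 1.1 and 1.13 with BafA1 (adjusted p = 0.565). MITF, near 1.01 CPM in control, was called lower (log2 fold change -0.92 ± 0.34, adjusted p = 0.0469) but lost that call in 9 of 15 alternatives, with an adjusted p of up to 0.143 without control replicate 3 and 0.105, 0.136 and 0.134 without control replicate 1 and BafA1 replicates 2 and 3. In the mTORC1 branch 6 of 23 genes rose and 4 fell, or 2 fell without control replicate 1, control replicate 2 or BafA1 replicate 2 and in the 6 libraries alone. In the latter FPKM fit 3 rose. RRAGD, a Rag GTPase, was at 64.1 ± 1.98 and 103 ± 15 CPM (log2 fold change 0.69 ± 0.11, adjusted p = 0.000378). FLCN, the folliculin that sets its nucleotide state, was at 46.1 ± 2.42 and 66.1 ± 7.98 CPM (log2 fold change 0.52 ± 0.10, adjusted p = 0.00141). CASTOR1, an arginine sensor, was at 4.66 ± 0.364 and 9.02 ± 1.24 CPM (log2 fold change 0.95 ± 0.16, adjusted p = 0.000579). DDIT4, which restrains mTORC1 under low oxygen or stress, went from 269, 394 and 429 to 1113, 1056 and 1421 CPM (log2 fold change 1.72 ± 0.23, adjusted p = 0.000147). MTOR, the kinase itself, fell from 101, 89.7 and 79 to 56.4, 41.1 and 47.9 CPM (log2 fold change -0.89 ± 0.12, adjusted p = 0.000171). FNIP2, a folliculin partner, went from 31.8 ± 1.97 to 18.2 ± 4.73 CPM (log2 fold change -0.80 ± 0.15, adjusted p = 0.00157).

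Autophagy genes were called in both directions. Of 51 tested, 11 rose and 11 fell, and the median log2 fold change was -0.06, smaller than the shift between scalings. Under scaling by library size alone 17 fell, and in the FPKM fits 7 and 5 rose, with 17 lower in the former. Among cargo receptors 5 of 11 rose and 1 fell (median 0.39), or 3 rose in the latter FPKM fit. Among genes that start autophagosomes 2 of 11 rose and 4 fell, and in conjugation and lipid supply 3 of 15 rose and 5 fell, or 3 fell without control replicate 1 or 2. Of the former, 1 rose without control replicate 1, control replicate 2, BafA1 replicate 1 or BafA1 replicate 3, and 7 fell under scaling by library size alone. Of the latter, 5 rose without BafA1 replicate 1 and 0 in the FPKM fits. BNIP3, a mitophagy receptor, was at 132, 229 and 247 CPM in control and 549, 528 and 585 with BafA1 (log2 fold change 1.45 ± 0.20, adjusted p = 0.000175). OPTN, a receptor for ubiquitinated cargo, went from 34.7, 30.4 and 38.5 to 70.8, 72.5 and 74.9 CPM (log2 fold change 1.08 ± 0.13, adjusted p = 8.21e-05). CALCOCO2, which binds bacteria and damaged membranes, and NBR1, which binds protein aggregates, rose from 53.7 ± 6.94 to 76.8 ± 3.83 and from 71.6 ± 5.64 to 97.9 ± 5.21 CPM (log2 fold change 0.52 ± 0.10 for CALCOCO2 and 0.45 ± 0.09 for NBR1, adjusted p = 0.00138 and 0.00164). SQSTM1, the receptor p62 whose protein builds up when autophagy stops, did not differ in mRNA beyond its spread, at 99.7, 88.7 and 70.3 CPM in control and 74.2, 82.9 and 91.8 with BafA1 (log2 fold change -0.06 ± 0.12, adjusted p = 0.748). GABARAPL1 was the called member of the 7 ATG8 genes, whose proteins coat the autophagosome, at 40.5, 37.8 and 41.9 CPM in control and 57.6, 67.1 and 71.9 with BafA1 (log2 fold change 0.71 ± 0.10, adjusted p = 0.000172). MAP1LC3B, its relative used as the standard marker, was at 91.9, 85.4 and 85.1 CPM in control and 87.8, 87.4 and 107 with BafA1 (adjusted p = 0.392).

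Among the early acting genes, ULK1, the starting kinase, fell from 58.4, 55.2 and 43.3 to 38.2, 31.2 and 33.4 CPM (log2 fold change -0.61 ± 0.12, adjusted p = 0.00148). PIK3R4, which anchors the lipid kinase of the pathway, was at 36.4, 35 and 34.2 CPM in control and 24.8, 24.1 and 23.4 with BafA1 (log2 fold change -0.55 ± 0.07, adjusted p = 0.000179). ATG5, needed to attach ATG8 proteins to lipid, went from 34.1, 31.5 and 31.2 to 23, 21 and 22.8 CPM (log2 fold change -0.53 ± 0.08, adjusted p = 0.000295). The treated libraries of these 3 genes all lay below the control libraries. ATG2A, a lipid transfer protein, ATG101, a partner of ULK1, and ATG16L1, a partner of ATG5, were also lower (-0.59 ± 0.11, -0.58 ± 0.14 and -0.42 ± 0.10 on the log2 scale). UVRAG, a subunit of the lipid kinase complex, was higher (log2 fold change 0.51 ± 0.08, adjusted p = 0.000523). The tethering gene PLEKHM1 fell (log2 fold change -0.62 ± 0.16, adjusted p = 0.00774), and none of the other 6 genes for fusion with the lysosome passed the test. Over all 7, lower calls numbered 2 without control replicate 3 or BafA1 replicate 2 and in the FPKM fits, and 3 under scaling by library size alone and with trends removed.

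Cells take up iron with transferrin through an acid endosome and store the excess in ferritin. TFRC, the transferrin receptor, was at 156, 182 and 164 CPM in control and 106, 92.8 and 109.9 with BafA1 (log2 fold change -0.70 ± 0.09, adjusted p = 0.00016). FTH1, the ferritin heavy chain that stores iron, was at 1022, 969.6 and 875 CPM in control and 1097, 1447 and 1387 with BafA1 (log2 fold change 0.46 ± 0.12, adjusted p = 0.00895). HMOX1, which frees iron from haem, rose from 12.2, 8.25 and 5.58 to 38.7, 18.4 and 27.4 CPM (log2 fold change 1.70 ± 0.28, adjusted p = 0.000605). FTL, the ferritin light chain, overlapped at 1588 ± 180.3 and 1960.3 ± 376 CPM (adjusted p = 0.0978). Over the whole list of 21 tested genes 6 rose, or 3 in the latter FPKM fit, and 6 fell. SLC25A37, which carries iron into mitochondria, and HEPH, a ferroxidase, were higher (log2 fold change 0.59 ± 0.07 for SLC25A37 and 0.48 ± 0.09 for HEPH, adjusted p = 0.000119 and 0.00114). The reductases STEAP1 and CYBRD1 fell (log2 fold change -0.70 ± 0.18 for STEAP1 and -0.47 ± 0.12 for CYBRD1, adjusted p = 0.00977 and 0.00998). NCOA4, the receptor that brings ferritin to autophagosomes, fell from 146 ± 2.69 to 119.7 ± 11.8 CPM (log2 fold change -0.29 ± 0.08, adjusted p = 0.0181).

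Metallothioneins, small proteins that bind zinc and copper, were higher. Of 9 genes in the list 6 could be tested and 6 rose, while MT1A, MT1H and MT1M had 0 counts in all 6 libraries. Among the 6 tested, MT1G had no count in control and could therefore be called only higher. MT1X was at 11.7, 10.2 and 9.96 CPM in control and 84.4, 67.3 and 101 with BafA1 (log2 fold change 2.99 ± 0.16, adjusted p = 2.97e-06). MT2A was at 10.4, 8.21 and 4.93 CPM in control and 54.1, 36.6 and 54 with BafA1 (log2 fold change 2.62 ± 0.26, adjusted p = 2.9e-05). In both genes the treated libraries lay far above the control libraries. MT1E (0.293 ± 0.0373 and 5.96 ± 2.36 CPM), MT1F (0.444 ± 0.132 and 1.51 ± 0.417 CPM) and MT3 (1.58 ± 0.606 and 5.21 ± 1.04 CPM) were scarcer, and MT1G had no count in control and 0.455, 0.268 and 0.388 CPM with BafA1. These genes are near-identical copies in part, so that the division of reads among them is uncertain.

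The promoters of MT1X and MT2A are printed because both genes rose and hold several copies of the metal response element, to which MTF1 binds when zinc is high. The 250 bases before each start are given, chr16:56682220-56682469 and chr16:56608334-56608583, plus strand of GRCh38.p14, with matches to TGCNCNC on either strand in capitals.
MT1X: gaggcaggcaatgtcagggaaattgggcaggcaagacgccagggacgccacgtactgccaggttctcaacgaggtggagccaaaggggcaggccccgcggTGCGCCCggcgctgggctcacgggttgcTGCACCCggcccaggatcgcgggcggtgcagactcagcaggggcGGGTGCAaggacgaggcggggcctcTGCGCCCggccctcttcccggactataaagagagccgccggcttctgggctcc
MT2A: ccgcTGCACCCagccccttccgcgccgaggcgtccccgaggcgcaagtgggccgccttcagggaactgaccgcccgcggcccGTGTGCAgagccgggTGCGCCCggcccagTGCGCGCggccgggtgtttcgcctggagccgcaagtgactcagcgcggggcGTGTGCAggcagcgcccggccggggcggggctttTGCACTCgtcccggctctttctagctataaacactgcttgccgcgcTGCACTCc
There were 4 matches in the first and 7 in the second. The motif is short and common: it was in 3 of 3 metallothionein windows, against 49.1% of all windows and 55.2% of those of genes tested. Besides MT1X and MT2A these windows include that of MT1H, which had 0 counts. The other metallothioneins that rose had no window. MTF1, the metal sensor, was at 16, 16.5 and 17.1 CPM in control and 16.1, 14.2 and 15.5 with BafA1 (adjusted p = 0.375). Of 14 genes for the sensor and zinc transporters 2 rose (1 without control replicate 3, in the 6 libraries alone and in the former FPKM fit) and 4 fell. SLC30A10, an exporter of manganese and zinc, rose from 3.75 ± 1.07 to 7.62 ± 0.687 CPM (log2 fold change 1.02 ± 0.23, adjusted p = 0.00419). The importers SLC39A6 and SLC39A10 fell (log2 fold change -0.44 ± 0.08 for SLC39A6 and -0.48 ± 0.11 for SLC39A10, adjusted p = 0.001 and 0.00508).

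Targets of hypoxia inducible factors (HIF) had a median log2 fold change of 1.54, the largest among lists of over 20 genes. That cutoff leaves out the metallothioneins (median 2.81 of 6 tested), and list members were chosen with earlier results of these data known. Of 27 HIF targets tested 25 rose and 0 fell. Their share of all gene counts was 0.232, 0.317 and 0.354% in the control libraries and 0.777, 0.673 and 0.926% in the BafA1 libraries. The control libraries thus differed among themselves, though none reached the treated ones. NDRG1 was at 31.1, 40.1 and 58.1 CPM and 308, 256 and 479.9 CPM (log2 fold change 3.01 ± 0.30, adjusted p = 3.34e-05). VEGFA, the angiogenic factor, went from 102 ± 26.3 to 395 ± 97.2 CPM (log2 fold change 1.95 ± 0.20, adjusted p = 3.79e-05). P4HA1, which hydroxylates collagen, went from 313 ± 97.5 to 976 ± 270.1 CPM (log2 fold change 1.64 ± 0.24, adjusted p = 0.000259). CA12, a carbonic anhydrase, and RORA, a nuclear receptor, were the members that did not pass, with log2 fold changes of 0.65 and 0.39.

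HIF1A, whose protein is controlled by degradation, was at 188, 195 and 193 CPM in control and 176, 155 and 175 with BafA1, slightly lower in each library but not past the test (log2 fold change -0.19 ± 0.08, adjusted p = 0.0877). The prolyl hydroxylases that mark HIF for degradation differed in direction. EGLN1 and EGLN3, themselves HIF targets, rose from 76.3 ± 7.38 to 157 ± 32.9 and from 78.8 ± 31.8 to 200.3 ± 45.1 CPM (log2 fold change 1.04 ± 0.15 for EGLN1 and 1.35 ± 0.25 for EGLN3, adjusted p = 0.000311 and 0.0012). EGLN2 fell from 78.8, 73.9 and 62.1 to 47.9, 47.7 and 49.6 CPM (log2 fold change -0.56 ± 0.10, adjusted p = 0.000806). VHL, the ubiquitin ligase subunit that recognises hydroxylated HIF, fell from 92.7, 94 and 83.4 to 70.4, 69.5 and 65.8 CPM (log2 fold change -0.39 ± 0.08, adjusted p = 0.00171). HIF3A, a family member induced by low oxygen, rose (log2 fold change 1.14 ± 0.10, adjusted p = 1.91e-05), and ARNT2, the neural partner of HIF proteins, fell (log2 fold change -0.64 ± 0.11, adjusted p = 0.00108).

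BNIP3 belongs to this set as well as to the autophagy receptors. Its promoter is shown for the density of the HIF core letters, chr10:131981924-131982173 on the minus strand, printed in the direction of transcription with ACGTG and GCGTG on either strand in capitals.
BNIP3: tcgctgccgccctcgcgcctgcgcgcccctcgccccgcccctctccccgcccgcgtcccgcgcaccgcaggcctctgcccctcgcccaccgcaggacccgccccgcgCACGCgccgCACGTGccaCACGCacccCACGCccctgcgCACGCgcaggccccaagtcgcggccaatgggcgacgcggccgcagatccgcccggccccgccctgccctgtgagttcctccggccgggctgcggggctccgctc
It held 6 matches, where the palindrome CACGTG was counted once on each strand. ACGTG lies inside the E-box CACGTG, so that a window with CACGTG counts for both motifs. ACGTG or GCGTG was found in 85.7% of 28 windows of hypoxia targets against 43.2% of all windows and 52.2% of those of genes tested. Windows of glycolysis genes held them at about that share (52.9% of 51), and windows of cholesterol synthesis genes, described below as lower, in 85% of 20.

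Glycolysis genes took 2.01 ± 0.152% of all gene counts in control and 4.06 ± 0.365% with BafA1 (SD, n = 3). Of 27 tested 23 rose and 2 fell, with a median of 1.13. Only 1 fell without control replicate 1, control replicate 2, BafA1 replicate 2 or BafA1 replicate 3, in the 6 libraries alone and with trends removed. SLC2A1, the basal glucose transporter, was at 542, 474 and 469 CPM in control and 1815, 1649 and 2369 with BafA1 (log2 fold change 1.97 ± 0.16, adjusted p = 1.16e-05). SLC2A3, the neuronal glucose transporter, went from 514, 553 and 807 to 2968, 2534 and 3632 CPM (log2 fold change 2.28 ± 0.19, adjusted p = 1.22e-05). HK2, the inducible hexokinase, and HK1, the constitutive form, rose by 2.37 ± 0.20 and 1.38 ± 0.10 on the log2 scale. GPI, the next enzyme of the path, was at 298, 324 and 314 CPM in control and 1103, 1148 and 1640.2 with BafA1 (log2 fold change 2.06 ± 0.14, adjusted p = 7.32e-06). PFKP, a phosphofructokinase, was at 118, 123 and 119 CPM in control and 325, 298 and 341 with BafA1 (log2 fold change 1.42 ± 0.09, adjusted p = 4.98e-06). The groups did not overlap in any of these genes. SLC16A3, which exports lactate, rose (log2 fold change 1.61 ± 0.14, adjusted p = 1.59e-05), while SLC16A1, a transporter of lactate and pyruvate, was lower (log2 fold change -0.29 ± 0.08, adjusted p = 0.0155), a call lost without control replicate 2 (0.0614).

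**Figure D2:**
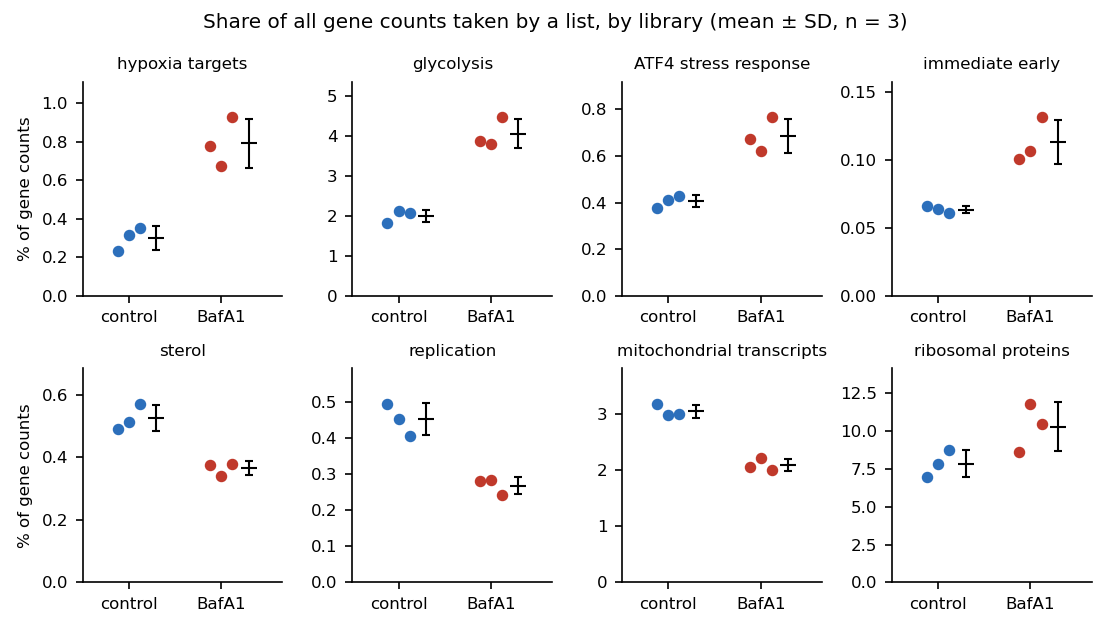
Share of all gene counts (y axis, percent, from 0) taken by 8 gene lists in each library, with the mean ± SD of 3 libraries beside the points. Control and BafA1 libraries do not overlap for 7 of the lists, and for ribosomal proteins the lowest BafA1 library (8.61%) lies below the highest control library (8.77%). The lists drawn were picked from 41, so the count follows from the choice. Among lists not drawn, some overlapped (NRF2 antioxidant genes, p53 targets and V-ATPase) and others did not (tRNA synthetases, BMP and TGF-beta).

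The integrated stress response, in which the factor ATF4 raises genes of amino acid supply, was higher as a set: 27 of 37 genes rose and 1 fell (median 0.77), while 3 fell under scaling by library size alone, 4 and 2 in the FPKM fits and 2 without control replicate 3 and with trends removed. Its share of counts was 0.379, 0.413 and 0.428% in control and 0.671, 0.62 and 0.767% with BafA1. ATF4 itself went from 407, 434 and 438 to 501, 655 and 775 CPM (log2 fold change 0.59 ± 0.13, adjusted p = 0.00438). DDIT3, the factor CHOP, was at 19.4, 28.6 and 38.6 CPM in control and 74.7, 110.5 and 179 with BafA1 (log2 fold change 2.07 ± 0.30, adjusted p = 0.00028). PPP1R15A, which ends the response by restoring eIF2 activity, was at 33.7, 35.1 and 40.1 CPM in control and 81.1, 92.8 and 137 with BafA1 (log2 fold change 1.51 ± 0.16, adjusted p = 4.64e-05). No treated library overlapped a control library in these genes. SLC7A5, an importer of large neutral amino acids, and PCK2, the mitochondrial PEPCK, rose from 115 ± 17.2 to 304 ± 48.3 and from 58.2 ± 4.93 to 119 ± 10.8 CPM (log2 fold change 1.41 ± 0.13 for SLC7A5 and 1.03 ± 0.10 for PCK2, adjusted p = 2.51e-05 and 2.9e-05). The sensor kinase EIF2AK3 (PERK) was at 30.3 ± 2.24 and 27.8 ± 1.49 CPM (adjusted p = 0.26).

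ASNS, which makes asparagine, is a classical ATF4 target and rose from 117, 173 and 229 to 419, 467 and 696 CPM (log2 fold change 1.61 ± 0.23, adjusted p = 0.000262). Its promoter is printed because it holds the letters TGATGNAA that ATF4 dimers recognise, chr7:97872409-97872658, minus strand, in the direction of transcription and with the match in capitals.
ASNS: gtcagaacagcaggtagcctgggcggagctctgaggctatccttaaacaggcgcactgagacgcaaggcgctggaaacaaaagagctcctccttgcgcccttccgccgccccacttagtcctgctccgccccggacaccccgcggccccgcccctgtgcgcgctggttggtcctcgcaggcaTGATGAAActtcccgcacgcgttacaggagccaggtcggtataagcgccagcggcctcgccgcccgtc
The letters were in 12.1% of 33 windows of ATF4 targets and 14.3% of 21 windows of tRNA synthetase genes, against 3.15% of all windows and 1.88% of those of genes tested. Cytosolic tRNA synthetases, which load amino acids on tRNA, rose in 11 of 20 genes and fell in 3, or in 1 without control replicate 1 or BafA1 replicate 1 and in the 6 libraries alone, and 7 rose in the latter FPKM fit. AARS1 (alanine) was at 129, 126 and 143 CPM in control and 303, 268 and 365 with BafA1 (log2 fold change 1.23 ± 0.12, adjusted p = 2.3e-05). GARS1, YARS1 and CARS1 were higher by 0.97 ± 0.11, 0.91 ± 0.10 and 0.86 ± 0.11 on the log2 scale. FARSB, a subunit of the phenylalanine enzyme, fell (log2 fold change -0.51 ± 0.09, adjusted p = 0.0011). Genes of protein folding in the endoplasmic reticulum showed no common direction, with 4 of 25 higher and 6 lower, or 3 lower without control replicate 1, control replicate 2 or BafA1 replicate 3 and in the 6 libraries alone. HSPA5, the chaperone BiP that leads the unfolded protein response, was at 894, 740.0 and 673 CPM in control and 582, 774 and 1065 with BafA1, which overlap (adjusted p = 0.79). HERPUD1, a membrane protein of the degradation path, and P4HB, a disulfide isomerase, rose (log2 fold change 1.06 ± 0.17 for HERPUD1 and 0.70 ± 0.12 for P4HB, adjusted p = 0.000486 and 0.000999). CRELD2 and DNAJC10, further folding factors, fell (log2 fold change -0.90 ± 0.15 for CRELD2 and -0.55 ± 0.08 for DNAJC10, adjusted p = 0.000727 and 0.000279).

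Sterol genes moved the other way. Cholesterol synthesis, uptake and fatty acid synthesis are normally raised together by SREBP factors when sterol is short. Here 15 of 20 genes of cholesterol synthesis fell and 0 rose (median -0.59), 7 of 9 of fatty acid synthesis fell and 0 rose, and 5 of 12 of uptake, sensing and export fell while 3 rose. Without control replicate 3 or BafA1 replicate 2, 1 gene of fatty acid synthesis was called higher. HMGCS1, which makes the precursor HMG-CoA, was at 264, 328 and 426 CPM in control and 91.2, 99.2 and 98 with BafA1 (log2 fold change -1.82 ± 0.15, adjusted p = 1.16e-05). IDI1, an isomerase of the same path, went from 86.9, 99.5 and 123 to 33.6, 33.2 and 40.7 CPM (log2 fold change -1.53 ± 0.13, adjusted p = 1.48e-05). No treated library reached the lowest control library in either of them. MYLIP, a ubiquitin ligase of the sterol pathway, was lower too (log2 fold change -1.20 ± 0.15, adjusted p = 9.25e-05). FASN, the fatty acid synthase, fell from 293 ± 25.9 to 186 ± 21.3 CPM (log2 fold change -0.65 ± 0.11, adjusted p = 0.000586). INSIG2, which holds SREBP in the endoplasmic reticulum, rose from 47.8, 64.9 and 76 to 168, 142 and 238 CPM (log2 fold change 1.54 ± 0.21, adjusted p = 0.000166). ABCA1, which exports cholesterol, went from 14.3 ± 2.93 to 26.5 ± 6.1 CPM (log2 fold change 0.90 ± 0.18, adjusted p = 0.00249). INSIG2 is also in the list of hypoxia targets. The strict sterol element TCACNCCAC was in 0 of 20 windows of cholesterol synthesis genes and in 0.883% of all windows and 0.884% of those of genes tested.

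Immediate early genes, which respond to growth factors and stress within minutes, rose in 17 of 25 tested genes and fell in 0 (median 1.06). Without control replicate 3, 1 was called lower. JUN was at 18.1, 15.5 and 16.3 CPM in control and 75.9, 107 and 164 with BafA1 (log2 fold change 2.80 ± 0.25, adjusted p = 1.93e-05). MYC, a growth regulator, was at 4.62, 5.71 and 7.02 CPM in control and 23.3, 28.8 and 28.6 with BafA1 (log2 fold change 2.21 ± 0.14, adjusted p = 4.68e-06). IER3 and DUSP1, an inhibitor of MAP kinases, rose from 17.9 ± 1.95 to 64.1 ± 14.2 and from 9.63 ± 0.76 to 36.4 ± 11.5 CPM (log2 fold change 1.84 ± 0.15 for IER3 and 1.92 ± 0.19 for DUSP1, adjusted p = 1.16e-05 and 2.7e-05). FOSB, which is often induced along with FOS, had 1.08 ± 0.0851 and 0.992 ± 0.169 CPM (adjusted p = 0.738).

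Targets of YAP and TEAD, factors that respond to cell shape and tension, rose in 12 of 14 genes and fell in 0 (median 0.96). Of these, 1 was called lower under scaling by library size alone, in DESeq2 and in both FPKM fits. The same number was lower without control replicate 3 or BafA1 replicate 1. ANKRD1 was at 19.5, 14.8 and 16.3 CPM in control and 92.2, 124 and 133 with BafA1 (log2 fold change 2.79 ± 0.15, adjusted p = 2.97e-06). CCN1, a secreted matrix protein, was at 60.8, 51.9 and 76.4 CPM in control and 249, 267 and 291 with BafA1 (log2 fold change 2.09 ± 0.13, adjusted p = 4.68e-06). CCN2, of the same family, was at 102, 89.9 and 109.6 CPM in control and 324, 329.7 and 313 with BafA1 (log2 fold change 1.68 ± 0.09, adjusted p = 2.97e-06). All treated libraries were far above the control libraries, as they were for AMOTL2 (log2 fold change 1.53 ± 0.14, adjusted p = 1.73e-05).

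Contractile genes under SRF rose in 8 of 17 and fell in 0, among them ACTC1, CNN1, ACTA2 and MYH9, a non-muscle myosin. Their log2 fold changes were 1.73 ± 0.14, 1.07 ± 0.15, 0.99 ± 0.13 and 0.96 ± 0.13 (adjusted p = 1.16e-05, 0.000274, 0.00012 and 0.00015). Of the 17 genes, 1 was called lower under scaling by library size alone and without control replicate 3, and 2 with trends removed. Collagens rose in 13 of 24 genes and fell in 1 (0 without control replicate 1, BafA1 replicate 2 or BafA1 replicate 3), although only 8 and 7 were called higher in the FPKM fits. COL4A1, a basement membrane chain, was at 362 ± 69.2 and 772 ± 131 CPM (log2 fold change 1.09 ± 0.15, adjusted p = 0.000204). COL6A1 and COL6A2 rose by 0.74 ± 0.08 and 0.80 ± 0.11 on the log2 scale (adjusted p = 5.52e-05 and 0.000195). Markers of mesoderm and mesenchyme are given beside these genes, and COL1A1 is in both this list and that of collagens. Of 19 such markers 14 were tested, 5 rose (3 without control replicate 2) and 3 fell, and their summed level was 1012 to 1761 CPM in control and 1958 to 2214 CPM in BafA1 libraries, with 2 to 3 and 2 to 4 members at 0. COL1A1 and PDGFRA were higher (0.70 ± 0.17 and 0.49 ± 0.11), while PRRX1, LUM and DCN fell (-1.54 ± 0.21, -1.67 ± 0.14 and -3.45 ± 0.50). In bulk RNA fewer cells of a type and less RNA per cell cannot be told apart, and the part of mesenchymal cells in these changes was not tested.

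DNA replication genes were lower. Of 43 tested 35 fell and 1 rose, with a median log2 fold change of -0.71, and their share of counts was 0.496, 0.454 and 0.408% in control and 0.281, 0.283 and 0.242% with BafA1. PCNA, the sliding clamp of DNA polymerase, was at 295, 274 and 254 CPM in control and 97.3, 126 and 98.8 with BafA1 (log2 fold change -1.35 ± 0.11, adjusted p = 1.22e-05). CCNE2, the cyclin of S phase entry, went from 9.01, 8.9 and 7.36 to 2.4, 1.32 and 1.29 CPM (log2 fold change -2.33 ± 0.23, adjusted p = 3.23e-05). POLA1, the catalytic polymerase that starts new strands, was at 127, 119.7 and 120.3 CPM in control and 68.6, 72 and 66.9 with BafA1 (log2 fold change -0.82 ± 0.08, adjusted p = 2.51e-05). The groups were separate in each. CDT1, the licensing factor, was the member that rose, from 51.4, 50.0 and 45.3 to 77.3, 93.9 and 75.7 CPM (log2 fold change 0.75 ± 0.11, adjusted p = 0.000226). Of 34 genes of mitosis 13 fell and 2 rose (median -0.22), and 23 fell under scaling by library size alone and 26 and 23 in the FPKM fits. None rose in these or without control replicate 2, 1 did without control replicate 3, without BafA1 replicate 2 and with trends removed, and 4 did without BafA1 replicate 1. MKI67, the proliferation marker, was at 382, 358 and 368 CPM in control and 268, 194 and 174 with BafA1 (log2 fold change -0.80 ± 0.13, adjusted p = 0.000699). ASPM and CENPF, which act at the spindle, fell too (log2 fold change -0.97 ± 0.10 for ASPM and -0.77 ± 0.10 for CENPF, adjusted p = 3.32e-05 and 0.000114).

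Targets of p53 were mixed, with 8 of 22 higher and 5 lower, or 3 lower without control replicate 2 or BafA1 replicate 2 and 5 higher in both FPKM fits. CDKN1A, the cell cycle inhibitor p21, overlapped between groups at 140.1, 114 and 103 CPM in control and 115, 135 and 164 with BafA1 (adjusted p = 0.311). GDF15, a stress cytokine, and DDB2, a DNA damage sensor, rose (log2 fold change 1.62 ± 0.25 for GDF15 and 0.82 ± 0.14 for DDB2, adjusted p = 0.000395 and 0.000661). TP53I3 and PMAIP1, a BH3 protein of apoptosis, fell (log2 fold change -0.72 ± 0.12 for TP53I3 and -0.84 ± 0.15 for PMAIP1, adjusted p = 0.000538 and 0.00107). Antioxidant genes under NRF2 were called in both directions, 4 of 18 higher (7 without BafA1 replicate 1) and 4 lower. NQO1, a quinone reductase, was at 86.8, 69.9 and 49 CPM in control and 31.8, 41.2 and 43.9 with BafA1 (log2 fold change -0.82 ± 0.18, adjusted p = 0.0036).

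**Figure D3:**
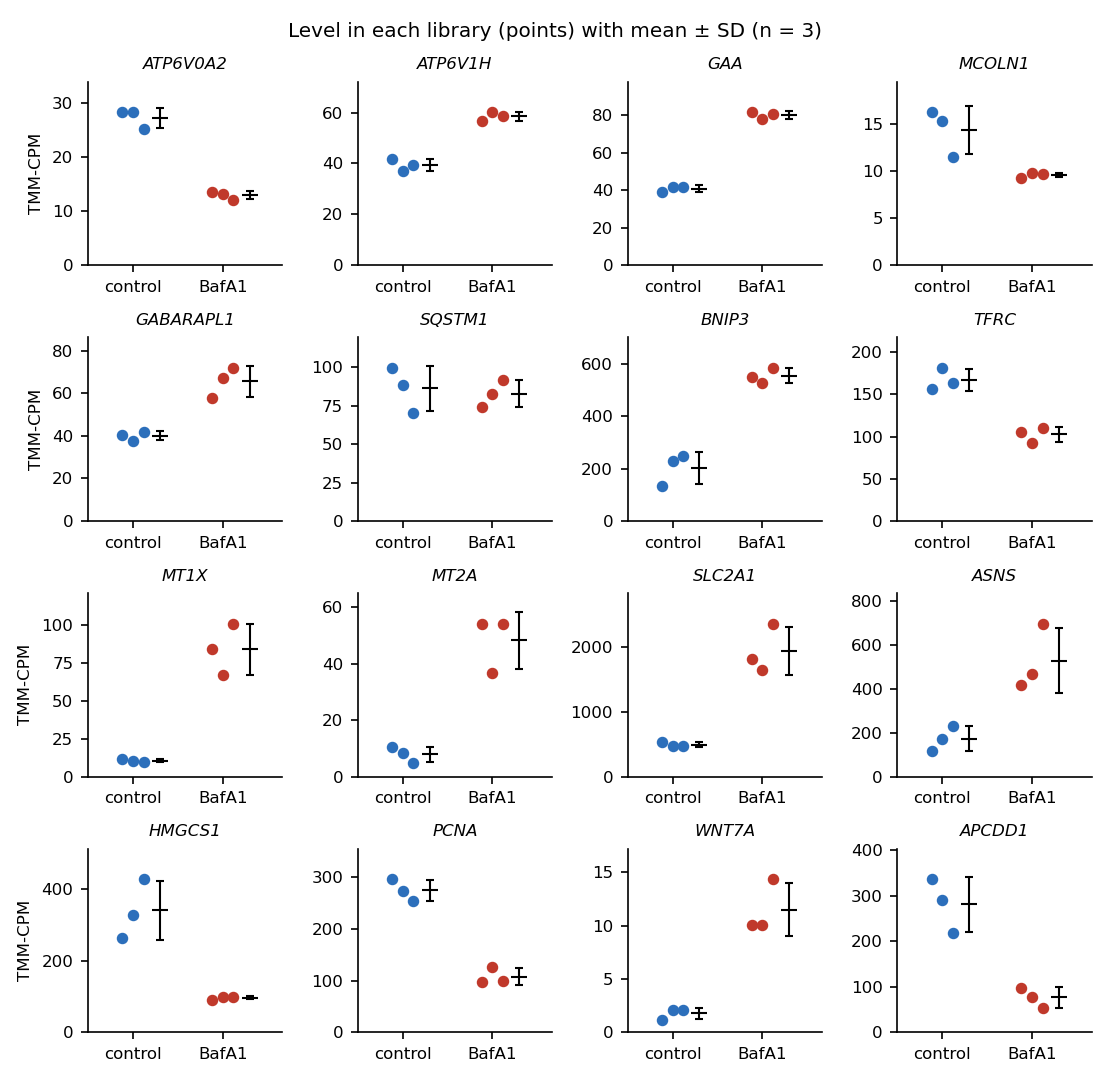
Level in each library (points, TMM-scaled CPM, linear axis from 0) of 16 genes in 3 control and 3 BafA1 libraries, with mean ± SD. The groups are separate in 15 of them and overlap in SQSTM1. These genes were picked from those named in the text, most of them called, so the count follows from the choice. Of all genes tested, the groups did not overlap in 24.1% (higher) and 25.1% (lower).

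The 13 coding genes of the mitochondrial genome took 3.04 ± 0.115% of all gene counts in control and 2.09 ± 0.112% with BafA1 (SD, n = 3). Of these genes 9 fell and 0 rose (median -0.56). ATP6, a subunit of the ATP synthase, was at 2519, 2162 and 2172 CPM in control and 849, 1035 and 849 with BafA1 (log2 fold change -1.33 ± 0.14, adjusted p = 3.68e-05). COX1, the core of cytochrome oxidase, was at 6749.9, 6692 and 6688 CPM in control and 5671, 6049.9 and 5857 with BafA1 (log2 fold change -0.20 ± 0.10, adjusted p = 0.122), and neither this gene nor ND4 passed the test. ND4, of complex I, was at 4014, 3861 and 3945 CPM in control and 4117, 4322 and 4248 with BafA1 (log2 fold change 0.10 ± 0.10, adjusted p = 0.456). ATP8 overlaps ATP6, so that their reads cannot be fully told apart (log2 fold change -1.59 ± 0.15, adjusted p = 2.51e-05). ND2 and COX2 fell from 1391 ± 201 to 728 ± 67.7 and from 3209 ± 172 to 2004 ± 267 CPM (log2 fold change -0.93 ± 0.13 for ND2 and -0.68 ± 0.13 for COX2, adjusted p = 0.000171 and 0.00146). Nuclear genes of oxidative phosphorylation gave no stable count, with 23 of 77 higher and 4 lower, 48 higher without BafA1 replicate 1, and 13, 13 and 14 higher without control replicate 1, BafA1 replicate 2 and BafA1 replicate 3. Scaling by library size alone called 13 higher and 10 lower, and the FPKM fits 8 and 7 higher and 11 and 9 lower. NDUFA4L2, a form of its subunit that low oxygen induces, rose from 32.5 ± 7.4 to 75.9 ± 10.2 CPM (log2 fold change 1.22 ± 0.16, adjusted p = 0.000162).

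Ribosomal protein genes rose in 73 of 78 and fell in 0, by a median of 0.54, and took 6.98 to 8.77% of counts in control and 8.61 to 11.8% with BafA1. RPS2 was at 2056, 2165 and 2124 CPM in control and 2893, 3945 and 3698 with BafA1 (log2 fold change 0.73 ± 0.12, adjusted p = 0.000626). The groups were free of overlap in 38 of the 78. The count depends on single libraries and on the scale: 40 genes were called higher without control replicate 1, 41 without BafA1 replicate 2, 47 without BafA1 replicate 3 and 35 and 27 in the FPKM fits. By library, the share was 8.61, 11.8 and 10.5% in BafA1 replicates 1, 2 and 3. There the level of 13083 genes relative to their means had a Spearman's rho with transcript length of 0.155, -0.211 and -0.0717. In control replicates 1, 2 and 3 the shares were 6.98, 7.83 and 8.77% and the rho 0.138, 0.102 and 0.128. With trends with GC content and length removed, 75 were called higher and 1 lower. Scaling by library size alone also called 1 lower. These genes have many processed pseudogenes, between which reads can be split.

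WNT genes are given by role, since the series concerns DVL. Of 79 tested genes 21 rose and 21 fell, to be read against 20.8% and 20.7% of all genes. Among ligands and their carriers 6 of 21 rose and 4 fell. WNT7A was at 1.14, 2.06 and 2.13 CPM in control and 10.1, 10.1 and 14.3 with BafA1 (log2 fold change 2.69 ± 0.36, adjusted p = 0.000176). WNT7B was at 2.14, 2.11 and 4.24 CPM in control and 17.3, 12 and 14.1 with BafA1 (log2 fold change 2.35 ± 0.37, adjusted p = 0.000475). WLS, which carries WNT proteins to the surface, went from 337, 325 and 366 to 689.7, 588 and 586 CPM (log2 fold change 0.86 ± 0.10, adjusted p = 8.23e-05). WNT4 and WNT3 fell from 5.14 ± 1.63 to 1.4 ± 0.26 and from 8.71 ± 0.588 to 3.98 ± 0.21 CPM (log2 fold change -1.87 ± 0.26 for WNT4 and -1.13 ± 0.17 for WNT3, adjusted p = 0.000208 and 0.000347). WNT5A, a ligand of the floor plate that acts mainly without beta-catenin, was spread in both groups, at 78, 94.8 and 123 CPM in control and 94.6, 57.8 and 49.4 with BafA1 (adjusted p = 0.0605).

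**Figure D4:**
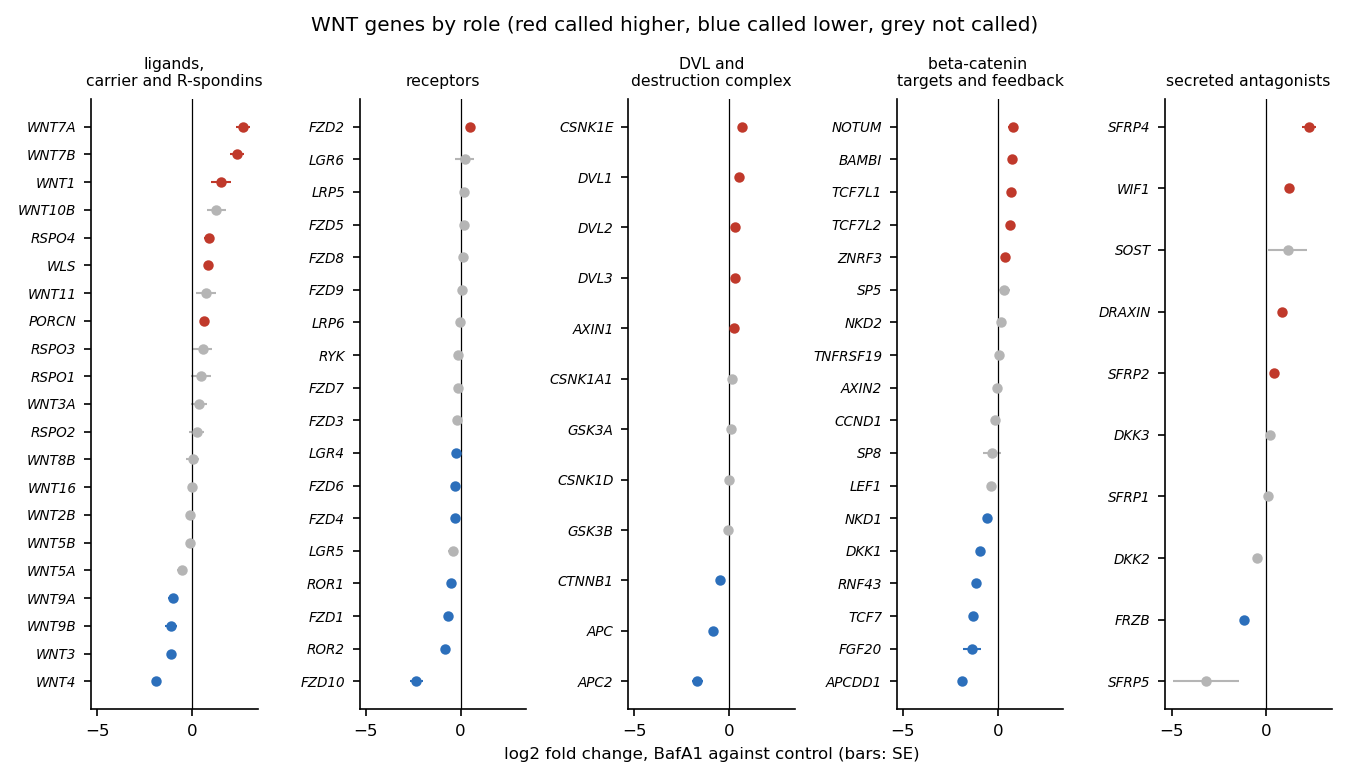
Log2 fold change (x axis, BafA1 against control, points with bars of 1 SE) of each tested WNT gene, in 5 panels by role. WNT7A and WNT7B lie furthest to the right among ligands, FZD10 furthest to the left among receptors, the DVL genes right of 0 within 0.28 to 0.51, and APCDD1 at -1.88 among targets.

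Of 18 receptors 7 fell and 1 rose, or 4 fell without control replicate 2 and also when trends with GC content and length were removed. FZD10 was at 24.2, 16.6 and 9.93 CPM in control and 2.62, 2.92 and 4.46 with BafA1 (log2 fold change -2.33 ± 0.33, adjusted p = 0.000252). FZD1 and ROR2, a co-receptor for WNT5A, fell from 63.7 ± 11.2 to 40.0 ± 3.92 and from 40.9 ± 12.1 to 22.7 ± 1.71 CPM (log2 fold change -0.67 ± 0.14 for FZD1 and -0.85 ± 0.17 for ROR2, adjusted p = 0.00278 and 0.00231). FZD2 rose from 134, 128 and 126 to 184, 188 and 178 CPM (log2 fold change 0.50 ± 0.07, adjusted p = 0.000242).

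The Dishevelled genes each rose slightly. DVL1 was at 43.8, 40.3 and 40.2 CPM in control and 53.8, 59.1 and 64.1 with BafA1 (log2 fold change 0.51 ± 0.08, adjusted p = 0.00063). DVL2 was at 91.3, 89.8 and 90.6 CPM in control and 107, 113 and 116 with BafA1 (log2 fold change 0.30 ± 0.07, adjusted p = 0.0064). DVL3 was at 103, 100.1 and 96 CPM in control and 123, 115 and 125 with BafA1 (log2 fold change 0.28 ± 0.07, adjusted p = 0.0108). No library of a group overlapped the other group. Under scaling by library size alone, DVL2 and DVL3 no longer passed (adjusted p = 0.0663 and 0.135), nor did they in the FPKM fits (0.0869 and 0.224, 0.24 and 0.352). CSNK1E, a kinase that phosphorylates DVL, rose from 109 ± 7.69 to 173 ± 18.4 CPM (log2 fold change 0.66 ± 0.10, adjusted p = 0.000353). In the destruction complex, which degrades beta-catenin, APC and APC2 fell from 56.9 ± 2.61 to 31.1 ± 4.18 and from 4.85 ± 0.531 to 1.52 ± 0.754 CPM (log2 fold change -0.87 ± 0.10 for APC and -1.67 ± 0.29 for APC2, adjusted p = 7.38e-05 and 0.000783). The mRNA of CTNNB1, beta-catenin itself, fell from 782, 799.7 and 699.9 to 532, 567 and 534 CPM (log2 fold change -0.48 ± 0.09, adjusted p = 0.00108). GSK3B, the kinase that CHIR99021 inhibits, had a log2 fold change of -0.04 ± 0.09 (adjusted p = 0.76).

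Targets and feedback genes of beta-catenin were called in both directions, 5 of 18 higher (3 in both FPKM fits) and 6 lower. AXIN2, the most used reporter of the pathway, overlapped between groups at 179, 149.96 and 134 CPM in control and 146, 153 and 151 with BafA1 (log2 fold change -0.04 ± 0.11, adjusted p = 0.797). LEF1 overlapped too, at 63.6, 55.1 and 39.5 CPM in control and 40.5, 41.4 and 40.0 with BafA1 (log2 fold change -0.38 ± 0.15, adjusted p = 0.0613). APCDD1, a membrane antagonist, was at 336, 290.3 and 217 CPM in control and 98.5, 78.4 and 53 with BafA1 (log2 fold change -1.88 ± 0.20, adjusted p = 4.59e-05). TCF7, a transcription factor that is also a target, and RNF43, which removes FZD receptors, fell (log2 fold change -1.30 ± 0.16 for TCF7 and -1.14 ± 0.18 for RNF43, adjusted p = 0.000113 and 0.000557). TCF7L1 and TCF7L2, related factors, rose from 66.5 ± 1.49 to 107 ± 12.1 and from 42.1 ± 2.35 to 65.7 ± 8.14 CPM (log2 fold change 0.68 ± 0.09 for TCF7L1 and 0.64 ± 0.10 for TCF7L2, adjusted p = 0.000148 and 0.000369). Of 10 secreted antagonists 4 rose and 1 fell. WIF1 and DRAXIN were higher (log2 fold change 1.18 ± 0.22 for WIF1 and 0.80 ± 0.12 for DRAXIN, adjusted p = 0.00146 and 0.000285) and FRZB lower (log2 fold change -1.20 ± 0.15, adjusted p = 9.73e-05).

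In the Hedgehog pathway 4 of 14 genes rose, or 2 in both FPKM fits, and 5 fell. CDON, a co-receptor, was at 33.7, 28.5 and 37.8 CPM in control and 79.3, 46.1 and 77.7 with BafA1 (log2 fold change 1.02 ± 0.18, adjusted p = 0.00088). PTCH1, receptor and target, was at 167 ± 18.6 and 246 ± 44.3 CPM (log2 fold change 0.56 ± 0.13, adjusted p = 0.00405, and 0.056 and 0.0689 in the FPKM fits). SMO, the signalling protein that purmorphamine binds, fell from 111, 111 and 94.2 to 68.6, 61.4 and 57.4 CPM (log2 fold change -0.76 ± 0.10, adjusted p = 0.000136). GLI1, the other usual target, fell (log2 fold change -0.55 ± 0.14, adjusted p = 0.0085), so that PTCH1 and GLI1 went in opposite directions. SHH was widely spread in control, at 125, 215 and 306 CPM against 200.2, 198 and 166 (adjusted p = 0.566).

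Notch genes rose in 11 of 20 and fell in 3 (1 without control replicate 1, control replicate 2 or BafA1 replicate 3). The ligand JAG1 was at 63.9 ± 7.39 and 125 ± 5.51 CPM (log2 fold change 0.96 ± 0.10, adjusted p = 3.91e-05). Of the other ligands, JAG2 and DLL1 rose by 1.10 ± 0.15 and 1.14 ± 0.18 on the log2 scale (adjusted p = 0.000175 and 0.000425). The target HES4 rose (log2 fold change 1.62 ± 0.19, adjusted p = 7.96e-05), and HES6, an opponent of HES1, fell (log2 fold change -0.91 ± 0.14, adjusted p = 0.00032).

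Genes of BMP and TGF-beta signalling rose in 15 of 25 and fell in 3, or in 1 without control replicate 1 or 2 (median 0.73). Both groups received inhibitors of both receptor families, and the activity of the receptors was not tested. NOG, a secreted BMP antagonist, was at 5.31, 5.53 and 8.45 CPM in control and 28.1, 21.7 and 30.3 with BafA1 (log2 fold change 2.05 ± 0.21, adjusted p = 3.35e-05). GREM1, another such antagonist, was at 48.8, 39.5 and 29 CPM in control and 119, 123 and 143 with BafA1 (log2 fold change 1.71 ± 0.16, adjusted p = 2.51e-05). SMAD7, an intracellular inhibitor, was at 8.39, 9.6 and 8.57 CPM in control and 20.2, 21 and 30.9 with BafA1 (log2 fold change 1.44 ± 0.15, adjusted p = 4.38e-05). BMP7, a ligand, rose (log2 fold change 1.08 ± 0.13, adjusted p = 7.81e-05). ID3, a BMP target, was at 244 ± 31 and 189.8 ± 28.1 CPM and called lower (log2 fold change -0.37 ± 0.12, adjusted p = 0.0289), a call lost without control replicates 1 (0.0919) or 2 (0.11) or BafA1 replicates 1 (0.0786) or 3 (0.106) and in the 6 libraries alone (0.0586).

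In the midbrain floor plate dopaminergic neurons are born. Of 26 of its markers tested 6 rose and 3 fell, to be set against 20.8% and 20.7% of all genes. In other fits 11 rose without control replicate 3, and 7 fell under scaling by library size alone, 6 and 7 in the FPKM fits and 5 with trends removed. LMX1A, a determinant of that fate, was at 68.2, 66.1 and 97.7 CPM in control and 102, 67.1 and 54.5 with BafA1 (adjusted p = 0.894). OTX2, of forebrain and midbrain, was at 101, 92.7 and 172 CPM in control and 196, 114 and 126 with BafA1 (adjusted p = 0.418), and both overlapped. FOXA2 was at 89, 102 and 113 CPM in control and 167, 164 and 157 with BafA1 (log2 fold change 0.68 ± 0.10, adjusted p = 0.000213). Its relative FOXA1 fell from 49.9, 48.5 and 58.6 to 43.5, 30.2 and 30.05 CPM (log2 fold change -0.60 ± 0.15, adjusted p = 0.0104). SPON1, secreted by the floor plate, rose from 41.5, 54.6 and 118 to 256, 178 and 148 CPM (log2 fold change 1.44 ± 0.31, adjusted p = 0.00345). LMX1B was called lower (47.1 ± 7.39 and 25 ± 12.4 CPM, log2 fold change -0.91 ± 0.28, adjusted p = 0.02), which was lost in DESeq2 (0.0885) and without control replicate 3 (0.0591), BafA1 replicate 2 (0.0762) or BafA1 replicate 3 (0.0803). TH, the enzyme that marks dopaminergic neurons, was nearly silent, at 0, 0.0676 and 0 CPM in control and 0.583, 0.536 and 0.776 with BafA1. EN1, of the midbrain and hindbrain, was at 6.26, 5.59 and 2.99 CPM in control and 2.49, 2.88 and 3.66 with BafA1 (adjusted p = 0.0716).

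Genes of neural progenitors were divided, 8 of 30 higher and 9 lower. Only 5 were higher without control replicate 2, under scaling by library size alone, with the replicate block and in both FPKM fits. VIM, the intermediate filament vimentin, was at 4927, 5635 and 4749.8 CPM in control and 7625, 10304 and 10806 with BafA1 (log2 fold change 0.91 ± 0.15, adjusted p = 0.000689). LIN28A, an RNA-binding protein of early progenitors, was at 518, 513 and 579.9 CPM in control and 756, 835 and 767 with BafA1 (log2 fold change 0.55 ± 0.09, adjusted p = 0.000671). PROM1, a membrane protein of progenitors, fell from 56.8, 55.2 and 51.3 to 26.3, 25 and 22.4 CPM (log2 fold change -1.15 ± 0.09, adjusted p = 1.04e-05), and so did ZIC1, a dorsal neural factor (log2 fold change -1.25 ± 0.27, adjusted p = 0.00297). SOX2 was at 249.96, 291 and 277 CPM in control and 323, 351 and 359 with BafA1 (log2 fold change 0.34 ± 0.09, adjusted p = 0.00887), which did not pass under scaling by library size alone (0.0552) or in the FPKM fits (0.0596 and 0.15). SOX1 was called lower at 23.9 ± 5.52 and 15 ± 3.13 CPM (log2 fold change -0.67 ± 0.20, adjusted p = 0.0202), which was lost without control replicate 1 (0.0889), control replicate 2 (0.0632), BafA1 replicate 1 (0.0709) or BafA1 replicate 3 (0.0515). PAX6, of forebrain and hindbrain, was low at 0.38 ± 0.163 and 1.04 ± 0.516 CPM, and its call (log2 fold change 1.45 ± 0.48, adjusted p = 0.0357) was lost without any of control replicates 1, 2 and 3 (0.101, 0.0577 and 0.0546) or BafA1 replicates 1 and 3 (0.149 and 0.0685). It was lost under scaling by library size alone (0.0559), with the replicate block (0.101) and in the former FPKM fit (0.0523) as well.

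Neuronal genes rose in 11 of 30 (7 in the former FPKM fit) and fell in 2, or in 1 to 4 when 1 library was left out. Only 1 fell without control replicate 1, control replicate 2, BafA1 replicate 2 or BafA1 replicate 3, and 4 fell without BafA1 replicate 1. ELAVL3, an RNA-binding protein of neurons, was at 3.54, 3.38 and 4.36 CPM in control and 9.6, 7.95 and 8.04 with BafA1 (log2 fold change 1.18 ± 0.19, adjusted p = 0.000561). SYT1, a calcium sensor of vesicle release, was at 36.6, 38.2 and 41.9 CPM in control and 57.3, 56.9 and 70.2 with BafA1 (log2 fold change 0.66 ± 0.10, adjusted p = 0.000372). ROBO1, an axon guidance receptor, rose (log2 fold change 0.71 ± 0.11, adjusted p = 0.000336), and ELAVL2, a relative of ELAVL3, fell (log2 fold change -0.83 ± 0.13, adjusted p = 0.00056). TUBB3 and DCX, the usual markers of young neurons, overlapped between the groups, at 263 ± 44 and 259.7 ± 3.7 CPM for TUBB3 and 27.5 ± 3.69 and 22.6 ± 8.56 CPM for DCX (adjusted p = 0.923 and 0.301).

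Markers of other regions and cell types were low or mixed. Hindbrain and spinal cord markers fell in 4 of 7 tested genes and rose in 0, with a summed level of 36.3 to 41.7 CPM in control and 26.3 to 29.7 CPM with BafA1. HOXB1 was at 1.54, 2.99 and 2.2 CPM in control and 0.346, 0.0975 and 0.217 with BafA1 (log2 fold change -3.30 ± 0.44, adjusted p = 0.000326). HOXB2 was at 3.47, 2.72 and 2.48 CPM in control and 0.328, 0.536 and 0.528 with BafA1 (log2 fold change -2.64 ± 0.30, adjusted p = 0.000128). Forebrain markers rose in 3 of 10 (1 without control replicate 2 or BafA1 replicate 2) and fell in 0 (summed level 24.6 to 34.7 CPM in control and 56.3 to 75.1 CPM with BafA1). In the latter FPKM fit 1 forebrain marker was called lower. FEZF2, a forebrain factor, was at 16.7, 18.1 and 15.5 CPM in control and 34.5, 48.2 and 44.2 with BafA1 (log2 fold change 1.34 ± 0.13, adjusted p = 2.3e-05). Epithelial and placode markers rose in 6 of 11 tested genes (3 in the former FPKM fit) and fell in 1, with a summed level of 578 to 772 CPM in control and 951 to 1240 CPM with BafA1. KRT19, an epithelial keratin, was at 48.7 ± 9.27 and 124 ± 12.1 CPM (log2 fold change 1.35 ± 0.14, adjusted p = 3.13e-05). Endoderm markers rose in 3 of 8 and fell in 1 (summed level 77.3 to 142.5 and 212.6 to 284 CPM), where CXCR4, which neural progenitors also express, made up most of the level (93.2 ± 27 and 218 ± 36.5 CPM). SOX17 and GATA4, defining markers of endoderm, had counts of 0 in the control libraries and at most 4 in any BafA1 library. The part of such cells in the changes above was not tested.

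Genes that set the pH of cells and vesicles rose in 9 of 25 and fell in 6, or in 3 without BafA1 replicate 3. CA9, a carbonic anhydrase at the cell surface and a HIF target, was at 2.56, 2.79 and 2.27 CPM in control and 11.7, 14.8 and 22.1 with BafA1 (log2 fold change 2.68 ± 0.24, adjusted p = 1.73e-05). SLC9A5, a sodium-proton exchanger, and CA5B, a mitochondrial carbonic anhydrase, rose (log2 fold change 0.88 ± 0.13 for SLC9A5 and 0.92 ± 0.16 for CA5B, adjusted p = 0.000287 and 0.00102). Golgi and endosome traffic genes fell in 15 of 40 and rose in 10, the latter 2 under scaling by library size alone, 2 and 1 in the FPKM fits, 5 without control replicate 2 and 6 without BafA1 replicate 3. VPS29 and VPS26A, subunits of the retromer that returns receptors from endosomes, went from 61.1 ± 4.75 to 40.3 ± 4.18 and from 97.5 ± 3.67 to 68.5 ± 3.61 CPM (log2 fold change -0.60 ± 0.10 for VPS29 and -0.51 ± 0.08 for VPS26A, adjusted p = 0.000615 and 0.000415). TRAPPC4 and TRAPPC10, tethers of Golgi vesicles, fell too (log2 fold change -0.57 ± 0.08 for TRAPPC4 and -0.56 ± 0.09 for TRAPPC10, adjusted p = 0.000314 and 0.000503).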

How the data were processed

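Messenger RNA of the 9 libraries was sequenced after a stranded kit, per the labels' protocols. Trimmomatic and GRCh38 are named in the submitters' processing notes. The aligner and the counter were not given in the sources used here. Per the file headers, the authors deposited whole-number counts per gene, and FPKM values in a table per group. Counts were tested here with edgeR 4.0.16 in R 4.3.3: filterByExpr by group, TMM scaling, the quasi-likelihood test with group as its only term over all 9 libraries, and Benjamini-Hochberg adjustment over 20685 genes. SE is the fold change over the root of the F statistic, and every p is two-sided. Between 43124679 and 69703791 counts lay behind each of the 6 libraries compared, and 3 per group limits the precision. The scripts were tested on simulated data.

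Named genes were the 12 largest rises and 12 largest falls among called genes without overlap and with a mean of at least 20 CPM in the higher group, up to 4 members of each list and role by adjusted p, and a set of pump, autophagy, WNT and identity genes. ABCA1, ACP2, ASNS, CA12, CDT1, COL1A1, COX1, COX2, CTNS, CTSC, CYBRD1, DLL1, DUSP1, EGLN3, EIF2AK3, FARSB, FLCN, FNIP2, FOSB, FOXA1, FTL, GLI1, GSK3B, HK2, HSPA5, ID3, LAMP3, LMX1B, MANBA, MFSD8, MT1F, MT3, MTF1, NCOA4, ND4, NES, NQO1, P4HA1, PDGFRA, PIP4P1, POU5F1, PSAP, RNF43, RORA, VEGFA, VHL, WNT5A and WNT7B lie outside this rule and were chosen after their values were seen. Some genes that the rule names are not reported here. The members and lists were chosen with earlier results of these data known. Motifs were searched in the 250 bases before each start, cut from the windows of RefSeq's GRCh38.p14 table, which holds 14659 of the genes tested, and those printed were chosen after the motif counts were seen. Alternatives were RLE factors, library size alone, DESeq2 1.42.0, no filter, the 6 libraries only, a replicate block, limma 3.58.1 on log2(FPKM + 1) and log2(FPKM + 0.1), trends with GC content and length removed, and each library left out.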

Additional observations from a re-analysis of the deposited data

How the results depend on the processing

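Of 8586 genes called, 74.6% (without control replicate 2) to 98.5% (RLE factors) were called again in the same direction in each of the 15 alternatives, and 0 in the opposite one. The higher and lower counts were 4309 and 4277 as reported. They were 4447 and 4147 with RLE factors, 4655 and 4365 with DESeq2, 3937 and 4037 without a filter, and 3761 and 3670 from the 6 libraries alone. In limma on log2(FPKM + 1) and log2(FPKM + 0.1) only 2833 and 2829 genes were higher, while 5682 and 5677 were lower, and the 2-fold counts were 257 and 751 higher and 217 and 886 lower. Leaving out 1 library gave 3241 to 4452 higher and 3278 to 4295 lower genes, and 1082 to 1568 higher and 691 to 1112 lower by 2-fold. Of 289 genes named by the rule 251 were called, 213 of them in all 15 alternatives, and 0 were reversed. The rule favours genes with a small adjusted p or a large change, so these counts follow in part from the choice. They do not stand for all 8586 calls. In log2(FPKM + 0.1) the calls of FTH1 (adjusted p = 0.0753), NPC1 (0.094), ATP6V1D (0.0639), NBR1 (0.0507) and FLCN (0.0569) were lost, as were those of CTSC with trends removed (0.108) and NCOA4 in the 6 libraries alone (0.0542). The causes were not tested. Same-numbered libraries deviated from their group means with correlations of 0.0417, 0.0105 and -0.00528 over 13696 genes. Unlike-numbered libraries gave -0.117 to 0.118. The labels name no pairing, and such correlations cannot show whether cultures were handled in pairs. With the replicate block 4112 genes were higher and 4130 lower (1212 and 846 by 2-fold). Genes near 1 CPM or below, such as MITF, PAX6 and TH, are limited by depth.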
